A study of Arabidopsis thaliana with 60 samples.

Results

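Of the transcription factors named MYB, NAC or WRKY followed by a number, 5 could be followed across the Arabidopsis thaliana leaf, namely the NAC factor NAC014 (AT1G33060) and the WRKY factors WRKY20 (AT4G26640), WRKY22 (AT4G01250), WRKY42 (AT4G04450) and WRKY47 (AT4G01720). They were chosen by symbol from the 13513 probe sets that the array's annotation ties to 1 gene, out of 22810 in all. The rule itself uses no measured value, but it was chosen with earlier results of these data known. WRKY6 and WRKY53 were left out by the rule. No probe set with 1 gene carried a MYB symbol of this kind, so MYB factors are not described, and RefSeq's table names 67 WRKY, 81 NAC or ANAC and 120 MYB genes. The 5 are therefore a small sample of their families and do not stand for them.

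The WRKY factors are a plant family of DNA-binding proteins that recognise the W-box, a short promoter element with a TTGAC core, and are best known from defence signalling and leaf senescence. WRKY22 acts with WRKY29 downstream of a MAP kinase cascade that is switched on when the plant senses bacterial flagellin, and it has been tied to senescence of leaves kept in the dark. WRKY42 and WRKY47 belong to group IIb of the family, as does WRKY6, and WRKY42 acts in phosphate balance as a repressor of the phosphate exporter gene PHO1. WRKY20 belongs to group I, whose members carry a pair of WRKY domains. NAC proteins share an N-terminal DNA-binding domain, and NAC014 is counted among the membrane-tethered members, which are released from a membrane before they reach the nucleus.

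RNA had been hybridised to 60 single-colour arrays, 3 for each of 20 leaf sets. Col-0 plants on soil in continuous light at 23 °C and 65% humidity gave most of them. These were rosette leaves 2, 4, 6, 8, 10 and 12, leaf 7 divided into petiole, proximal part and distal part, leaf 4 collected at 1 cm, the pair of leaves 1 and 2, cotyledons, cauline leaves (the leaves of the flowering stem) and senescing leaves. The same conditions gave leaf 4 at 1 cm and leaf 12 of a line labelled gl1T, about which the labels say only that the background of its leaf 12 was Col-0. Vegetative rosettes of Col-0 in a cycle of 10 h light and 14 h dark at 22 °C formed sets 87, 89 and 90, and a further set, used here only for levels and for the test over all sets, held leaves from medium with 1% sucrose in long days at 22 °C. The labels give soil for sets 87 and 89 and no substrate for set 90, record soil on the Col-0 leaf 4 tissue at 1 cm, and give leaf 12 of Col-0 a length of about 1 cm. They give no length for leaf 12 of gl1T. Whether the 3 arrays of a set hold RNA of different plants is not stated in the labels. A p-value here therefore measures no more than the spread among these arrays, and that spread may be technical.

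Values are MAS5 signals on a linear scale, on which every array had a trimmed mean of 100 and a median between 32.2 and 40. With 3 arrays a set, precision is limited. Arrays of a set correlated with r of 0.982 to 0.99. Of the mesophyll markers 2 of 6 had a named probe set (LHCB4.1 and RCA), and their summed signal was 7391 to 11791 on every array except those of senescing leaves, at 4094 to 4339. The root marker PYK10, 1 of 4 with a probe set, ran from 4.9 to 2118. Flower, phloem and xylem markers had no named probe set.

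The 5 factors fell into different kinds of profile. WRKY22 and WRKY47 had wide ranges, NAC014 a moderate one, WRKY20 stayed within a narrow band, and WRKY42 was dim on all arrays. Levels of different probe sets are not compared with each other, because each probe set has its own brightness. Since these are whole organs, fewer cells of a type and less RNA per cell cannot be told apart.

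**Figure D1:**
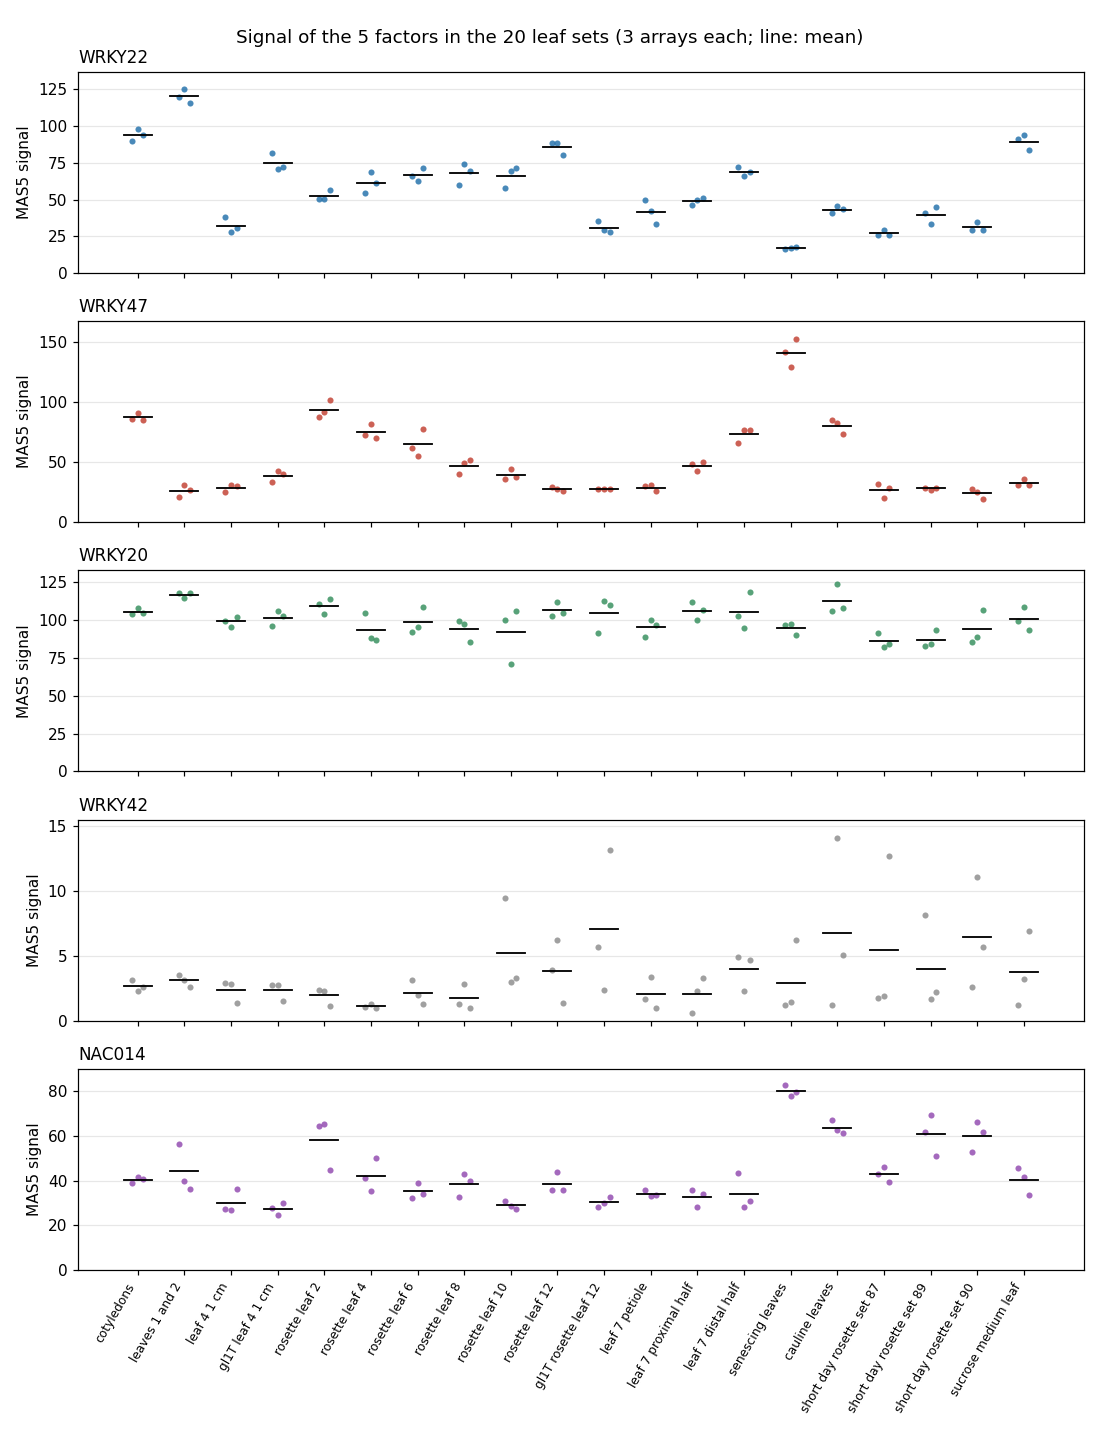
MAS5 signal (linear, vertical axis from 0) of the 5 factors in each of the 20 leaf sets, with 1 point per array and a line at the mean of 3 arrays. WRKY22 is highest in leaves 1 and 2 and lowest in senescing leaves, WRKY47 and NAC014 are highest in senescing leaves, WRKY20 stays between 71.1 and 124 on all 60 arrays, and WRKY42 stays at or below 14.1.

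The moderated F test of limma over all 20 sets called WRKY22, WRKY47 and NAC014, where a call needs a Benjamini-Hochberg adjusted p below 0.05 and a range of set means of at least 1 on the log2(signal + 6.139) scale. That is 3 of the 4 factors that passed the filter on dim probe sets, and 78.3% of all 15808 tested probe sets met the same rule. The range was 2.45 for WRKY22 (adjusted p = 8.54e-29), 2.29 for WRKY47 (adjusted p = 4.27e-28) and 1.37 for NAC014 (adjusted p = 2.45e-14). WRKY20 passed the test (adjusted p = 0.00283), but its range of 0.41 was under the size for a call.

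WRKY22 signal was highest in leaves 1 and 2 and in cotyledons and lowest in senescing leaves, with a ratio of set means of 7.06. Leaves 1 and 2 had a mean of 120.2 ± 4.61 (SD, n = 3) and cotyledons 93.9 ± 3.93. Leaves on sucrose medium followed at 89.5 ± 5.24, rosette leaf 12 at 85.7 ± 4.77 and gl1T leaf 4 at 74.8 ± 5.72. The order then ran through the distal part of leaf 7 (68.9 ± 2.85), rosette leaves 8 (67.8 ± 7.11), 6 (66.7 ± 4.42), 10 (66.3 ± 7.62), 4 (61.4 ± 7.05) and 2 (52.6 ± 3.52) to the proximal part of leaf 7 (49.1 ± 2.45). Below these lay cauline leaves (43.1 ± 2.25), the leaf 7 petiole (41.6 ± 8.08), short-day set 89 (39.6 ± 5.63), Col-0 leaf 4 at 1 cm (32.1 ± 5.32), short-day set 90 (31.2 ± 3.2), gl1T leaf 12 (30.9 ± 4.25) and short-day set 87 (27 ± 1.74). Senescing leaves came last at 17 ± 0.615. Of the 19 pairs of neighbours in this order, the arrays of 3 did not overlap. These were leaves 1 and 2 over cotyledons, the proximal part of leaf 7 over cauline leaves, and short-day set 87 over senescing leaves.

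WRKY47 ran from 141 ± 11.7 in senescing leaves to 24.2 ± 4.01 in short-day set 90, a ratio of 5.85. Rosette leaf 2 was second at 93.8 ± 7.47, followed by cotyledons (87.6 ± 3.21), cauline leaves (80.4 ± 6.4), rosette leaf 4 (75.0 ± 6.21), the distal part of leaf 7 (73.3 ± 6.49) and rosette leaf 6 (65.1 ± 11.8). A middle range held the proximal part of leaf 7 (47.2 ± 3.75), rosette leaf 8 (46.9 ± 6.25), rosette leaf 10 (39.1 ± 4.46) and gl1T leaf 4 (38.9 ± 4.89). The remaining sets lay between 24.2 and 32.6, with no separation among neighbours. They were leaves on sucrose medium, the petiole, both 1 cm Col-0 leaves, gl1T leaf 12, leaves 1 and 2 and the 3 short-day sets. Of the 19 neighbouring pairs 2 did not overlap, senescing leaves over rosette leaf 2 and rosette leaf 6 over the proximal part of leaf 7.

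NAC014 had its highest mean in senescing leaves (80.1 ± 2.42), with cauline leaves (63.6 ± 2.99), short-day sets 89 (60.6 ± 9.38) and 90 (60.1 ± 6.67) and rosette leaf 2 (58.1 ± 11.5) next. The other 15 sets had means from 27.3 to 44.2, and the lowest was gl1T leaf 4 at 27.3 ± 2.77. Only senescing over cauline leaves separated among its 19 pairs of neighbours. WRKY20 means lay between 86.2 ± 4.83 in short-day set 87 and 117 ± 1.91 in leaves 1 and 2, a ratio of 1.36, and none of its 19 pairs of neighbours separated. The median coefficient of variation within a set was 6.43% for WRKY20, 6.65% for WRKY22, 8.85% for WRKY47 and 11.7% for NAC014.

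WRKY42 signal lay between 0.583 and 14.1 over the 60 arrays, with a median of 2.62, and was above the 40th percentile of its array on 0 of 60 arrays. It therefore failed the filter and was not tested. Set means ran from 1.1 in rosette leaf 4 to 7.08 in gl1T leaf 12, with a median coefficient of variation of 62.1%, and none of its 19 neighbouring pairs separated. Single arrays stood high within sets, as in cauline leaves, where the 3 arrays read 14.1, 1.22 and 5.09. These signals give no order of leaf sets for WRKY42.

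In 13 comparisons of leaf sets fitted with limma, 9 of 52 pairs of a tested factor and a comparison were called, at an adjusted p below 0.05 and a log2 difference of at least 1. WRKY22 was called in 5 comparisons, WRKY47 in 4, and WRKY20 and NAC014 in 0. In what follows, differences are on the log2(signal + 6.139) scale with their SE, adjusted p-values are limma's over all 15808 tested probe sets, and "rose" and "fell" are used for calls. The leaf position, senescing, cauline and short-day comparisons share the arrays of rosette leaves 2 to 12, so their values stand side by side and are not independent.

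**Figure D2:**
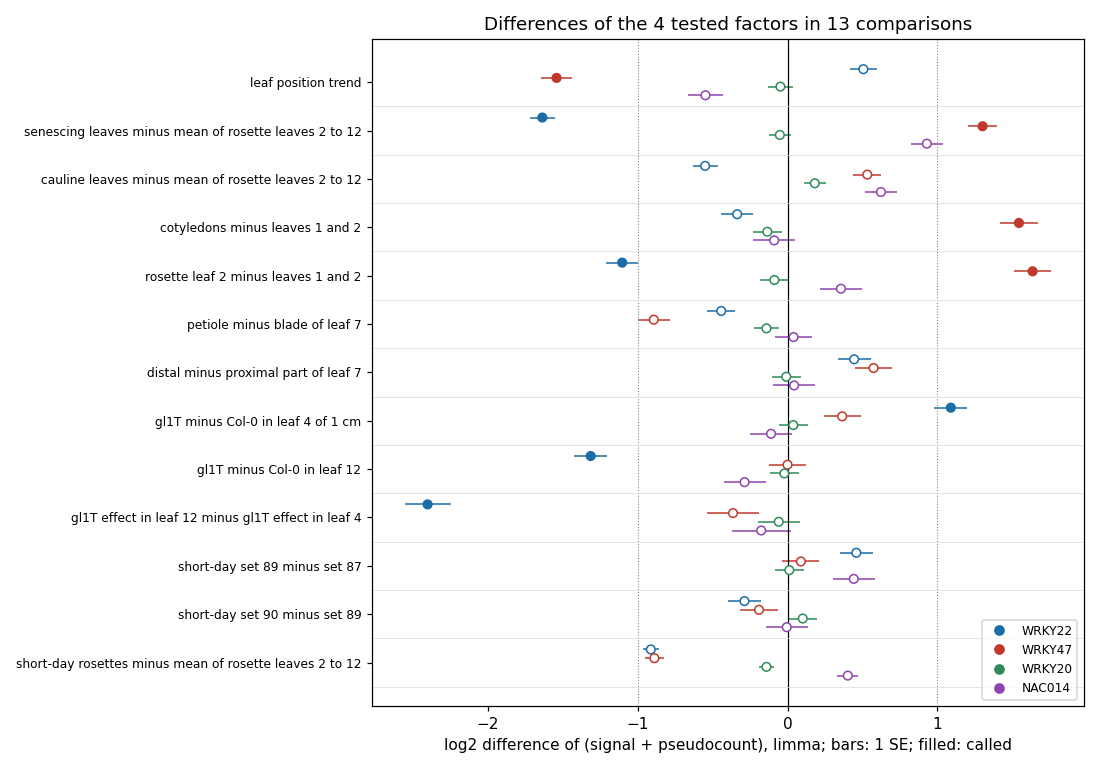
Difference on the log2(signal + pseudocount) scale (horizontal axis) of the 4 tested factors in the 13 comparisons, with bars of 1 SE and filled points for calls. The 9 filled points belong to WRKY22 and WRKY47, and WRKY20 lies close to 0 throughout, from -0.14 to 0.18.

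Along the rosette, WRKY47 fell from leaf 2 to leaf 12. Its signal was 87.5, 91.9 and 102 in leaf 2, then 72.3, 82.1 and 70.5 in leaf 4, and 62.0, 55.2 and 78.1 in leaf 6. It was 39.8, 49.2 and 51.6 in leaf 8, 35.7, 44.1 and 37.5 in leaf 10, and 29.0, 27.9 and 25.6 in leaf 12. Leaves 4 and 6 overlapped, as did leaves 8 and 10, and the other neighbours did not. Every leaf 2 array lay above every leaf 12 array. Leaf 12 was about 1 cm long, and the labels give no length for rosette leaves 2 to 10. The WRKY47 mean was 28.8 in leaf 4 at 1 cm, beside 75.0 in rosette leaf 4 and 27.5 in leaf 12. Leaf number, size and age cannot be told apart along these leaves. The fitted leaf 12 minus leaf 2 span was -1.54 ± 0.104 (adjusted p = 3.61e-19), a 2.91-fold decrease on this scale, and WRKY47 was the 1 factor of 4 called, where 23% of all tested probe sets were. The arrays of leaves 2 and 12 did not overlap for 3 of the 4 factors, nor for 71.3% of all tested probe sets.

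WRKY22 lay the other way, at 50.6, 50.6 and 56.7 in leaf 2 against 88.6, 88.2 and 80.2 in leaf 12. The sets did not overlap, and its span of 0.51 ± 0.0918 (adjusted p = 2.79e-06) was under the size needed for a call. Leaves 4 to 10 lay between 54.4 and 73.9 with no order beyond their spread. NAC014 had a span of -0.55 ± 0.118 (adjusted p = 4.76e-05), with arrays of 64.2, 65.1 and 44.9 in leaf 2 and 35.6, 43.7 and 35.6 in leaf 12. The WRKY20 span was -0.05 ± 0.0829 (adjusted p = 0.607). Along the same leaves the guard cell lineage markers FMA and SPCH, 2 of 4 with a probe set, rose by 1.12 ± 0.103 and 2.27 ± 0.205, and their summed signal went from 26.9 to 37.8 in leaf 2 to 93.2 to 107 in leaf 12. The root marker PYK10 fell by 1.53 ± 0.156, with 92.4 to 146 in leaf 2 and 17.4 to 31.4 in leaf 12. The part of these markers in the values of the factors was not tested.

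**Figure D3:**
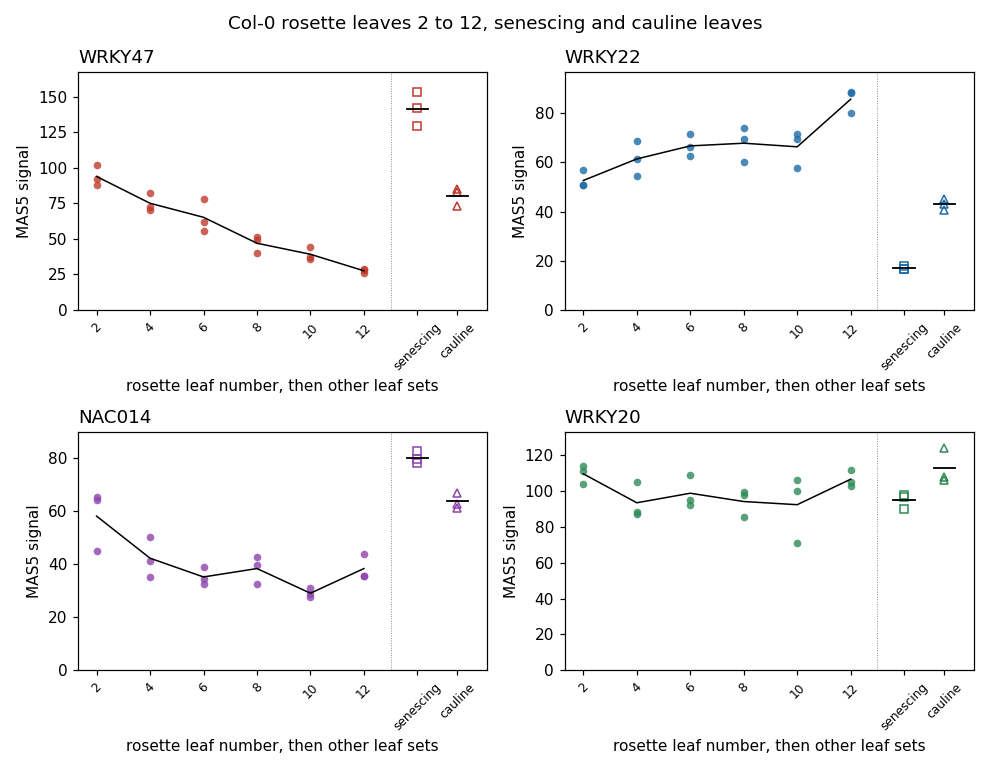
MAS5 signal (linear, from 0) of the 4 tested factors in Col-0 rosette leaves 2 to 12 (points, 1 per array, line through the means), senescing leaves (squares) and cauline leaves (triangles). WRKY47 falls from 93.8 in leaf 2 to 27.5 in leaf 12 and is at 141 in senescing leaves, while WRKY22 is at 52.6 in leaf 2, 85.7 in leaf 12 and 17 in senescing leaves.

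In senescing leaves WRKY47 rose and WRKY22 fell against the mean of rosette leaves 2 to 12. WRKY47 arrays read 142, 129 and 153, above all 18 rosette arrays, and the difference was 1.30 ± 0.0944 (adjusted p = 3.18e-18). Against leaf 2 alone, the rosette leaf with the highest WRKY47 signal, the difference was 0.56 (adjusted p = 7.48e-05) and not called. WRKY22 arrays read 16.6, 16.7 and 17.7, below all 18 rosette arrays, with a difference of -1.64 ± 0.0829 (adjusted p = 1.01e-24), a 3.11-fold decrease. Senescing leaves were also the 1 set in which WRKY22 failed the filter on dim probe sets.

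NAC014 arrays read 82.7, 78.0 and 79.6 in senescing leaves, also above all 18 rosette arrays. Its difference of 0.93 ± 0.107 (adjusted p = 2.64e-11) was just under the size for a call, and with a pseudocount of 1 it was 1.02 and called. Against leaf 2 alone, the rosette leaf with the highest NAC014 signal, it was 0.44 (adjusted p = 0.0044). WRKY20 had a difference of -0.05 ± 0.0749 (adjusted p = 0.513). The 2 factors called, of 4, stand beside 33.1% of all tested probe sets called in this comparison. The arrays of 3 of the 4 did not overlap with the rosette arrays, nor did those of 54.2% of all tested probe sets.

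Of 12 genes listed for chlorophyll breakdown and senescence, 2 had a named probe set. SAG29, a sugar transporter gene known for its expression in senescing leaves, was called at 1.43 ± 0.204 (adjusted p = 9.85e-09) against the mean of log2 values of the rosette leaves. Its arrays overlapped with theirs in range, at 49.2 to 54.8 in senescing leaves, 269 to 292 in rosette leaf 2 and 1.49 to 25.3 in rosette leaves 4 to 12. On the linear scale its mean was 51.7 in senescing leaves and 53.3 over the rosette leaves. SAG101 differed by 0.51 ± 0.121 and was not called. Both fell along the rosette, with spans of -3.93 ± 0.226 for SAG29 and -1.03 ± 0.134 for SAG101. Of 13 listed enzymes and regulators of anthocyanin and flavonol synthesis 4 were measured, and all 4 rose in senescing leaves with a median of 4.68, beside a median of 0.088 over all tested probe sets. DFR, a reductase of the anthocyanin branch, rose by 4.49 ± 0.14 there. All 4 also rose in short-day rosettes (median 2.14) and 3 in the petiole (median 1.53), where WRKY47 was lower without a call. Along the rosette 3 fell (median -2.1), and 3 rose in rosette leaf 2 against leaves 1 and 2 (median 1.84), both in the direction of WRKY47. In cauline leaves 1 of the 4 fell (median -0.86). Listed genes of salicylic acid and defence, 10 in number, and of the secondary wall, 7 in number, had no named probe set. The summed mesophyll markers were lower in senescing leaves than on any other array, and LHCB4.1, a light-harvesting protein gene, fell by 1.89 ± 0.0634. Its part in the WRKY and NAC014 values was not tested.

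In cauline leaves 0 of the 4 factors were called, against 14.6% of tested probe sets. WRKY22 arrays read 40.8, 45.3 and 43.2, below all rosette arrays, with a difference of -0.55 ± 0.0829 (adjusted p = 6.09e-08). It was the only tested factor without overlap, beside 29.9% of all tested probe sets. NAC014, at 66.9, 62.7 and 61.2, differed by 0.62 ± 0.107 (adjusted p = 9.73e-07) and WRKY47, at 85.2, 82.8 and 73.2, by 0.53 ± 0.0944 (adjusted p = 2e-06). NAC014 overlapped with rosette leaf 2, while WRKY47 lay below leaf 2 and overlapped with leaf 4. WRKY20 differed by 0.18 ± 0.0749 (adjusted p = 0.0282). Against leaf 12 alone, where WRKY47 was lowest, its difference was 1.36 and called. Against leaf 2 alone, the rosette leaf where WRKY47 was highest, its direction turned, at -0.21 and not called.

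WRKY47 separated the set of leaves 1 and 2 from cotyledons and from rosette leaf 2. It read 86.2, 91.2 and 85.2 in cotyledons and 21.3, 30.9 and 26.5 in leaves 1 and 2. The sets lay far apart, the difference was 1.54 ± 0.124 (adjusted p = 7.01e-16), and WRKY47 was the 1 factor of 4 called, beside 11.5% of tested probe sets. WRKY22 was lower in cotyledons, at 90, 97.8 and 93.9, than in leaves 1 and 2, at 119.7, 125 and 116, without overlap, by -0.34 ± 0.109 (adjusted p = 0.00712). WRKY20 (-0.14 ± 0.098, adjusted p = 0.247), whose arrays did not overlap either, and NAC014 (-0.09 ± 0.14, adjusted p = 0.613) did not pass the test. Arrays of 59.5% of all tested probe sets did not overlap in this comparison.

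Rosette leaf 2 and the set of leaves 1 and 2 share a leaf position, and the labels give no age for either. WRKY47 rose by 1.64 ± 0.124 (adjusted p = 3.65e-17) and WRKY22 fell by 1.1 ± 0.109 (adjusted p = 3.99e-13). Thus 2 of 4 were called, beside 22.5% of tested probe sets. The arrays of WRKY47, WRKY22 and WRKY20 did not overlap, nor did those of 70.1% of all tested probe sets. NAC014 differed by 0.36 ± 0.14 (adjusted p = 0.0221) with overlapping arrays and WRKY20 by -0.09 ± 0.098 (adjusted p = 0.431). With a pseudocount 4 times larger the WRKY22 difference was -0.91 and not called. Both measured senescence genes rose here too, SAG29 by 4.15 ± 0.267 and SAG101 by 1.5 ± 0.159. The root marker PYK10 read 65.7 to 80.2 in leaves 1 and 2, 92.4 to 146 in rosette leaf 2 and 247 to 297 in cotyledons, and its part in these values was not tested.

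Within leaf 7, WRKY47 and WRKY22 were brighter toward the tip, without a call. WRKY47 read 29.8, 31.2 and 25.7 in the petiole, 48.3, 43.1 and 50.3 in the proximal part and 65.9, 77.2 and 77.0 in the distal part. The 3 parts did not overlap. Distal minus proximal was 0.57 ± 0.124 (adjusted p = 0.000561), and petiole minus the mean of both blade parts was -0.89 ± 0.107 (adjusted p = 3.92e-10), or -1.002 and called with a pseudocount of 1. WRKY22 read 49.5, 42.1 and 33.3 in the petiole, 46.3, 50 and 50.9 in the proximal part and 72.0, 66.3 and 68.5 in the distal part. The distal part stood apart from the proximal part by 0.44 ± 0.109 (adjusted p = 0.00247), while the petiole, at -0.44 ± 0.094 from the blade (adjusted p = 6.65e-05), overlapped with the proximal part. With 0 of 4 called in each, the background was 0.62% for distal against proximal and 6.93% for petiole against blade. Distal and proximal arrays did not overlap for 2 of the 4 factors and for 30.9% of tested probe sets. Petiole and blade arrays did not overlap for WRKY47 alone among the factors, and for 41.1% of tested probe sets. At any size, an adjusted p below 0.05 was reached by 16.6% of tested probe sets for distal against proximal and by 53.6% for petiole against blade. NAC014 and WRKY20 differed by 0.04 ± 0.14 and -0.01 ± 0.098 between the blade parts and by 0.04 ± 0.121 and -0.14 ± 0.0849 between petiole and blade, none past the test.

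The gl1T line differed from Col-0 in WRKY22 in both leaves compared, in opposite directions. Leaf 4 was collected at 1 cm in both lines. For leaf 12 a length of about 1 cm is given for Col-0 only, so a match in size is not known there. In leaf 4 at 1 cm, WRKY22 read 38.0, 27.7 and 30.5 in Col-0 and 81.4, 71.0 and 72.0 in gl1T. The line lay wholly above Col-0, and WRKY22 rose by 1.09 ± 0.109 (adjusted p = 3.93e-12), the 1 factor of 4 called where 3.95% of tested probe sets were. Arrays of 48.4% of tested probe sets did not overlap in this comparison. In leaf 12 it read 88.6, 88.2 and 80.2 in Col-0 and 35.7, 29.3 and 27.7 in gl1T. Here the line lay wholly below Col-0, and WRKY22 fell by 1.31 ± 0.109 (adjusted p = 6.92e-15), again the 1 of 4 called, beside 3.82% of tested probe sets, with no overlap for 36.5%. With a pseudocount 4 times larger, the WRKY22 differences were 0.81 in leaf 4 and -0.99 in leaf 12, under the size for a call in both.

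The test of the difference itself, the gl1T effect in leaf 12 minus that in leaf 4, gave -2.4 ± 0.154 for WRKY22 (adjusted p = 2.41e-19). It was the 1 factor of 4 called, and 8.2% of tested probe sets were called in this test. The others gave -0.36 ± 0.175 for WRKY47 (adjusted p = 0.106), -0.18 ± 0.197 for NAC014 (adjusted p = 0.539) and -0.06 ± 0.139 for WRKY20 (adjusted p = 0.791). WRKY47 in leaf 4 read 25.1, 31.1 and 30.3 in Col-0 and 33.4, 42.7 and 40.6 in gl1T, without overlap, and differed by 0.36 ± 0.124 (adjusted p = 0.0182), under the size for a call. In leaf 12 its difference was 0 to 2 decimals, with an SE of 0.124. NAC014 differed by -0.11 ± 0.14 in leaf 4 (adjusted p = 0.593) and -0.29 ± 0.14 in leaf 12 (adjusted p = 0.122), and WRKY20 by 0.04 ± 0.098 (adjusted p = 0.817) and -0.02 ± 0.098 (adjusted p = 0.9). In leaf 12 the NAC014 arrays did not overlap, at 28.2 to 32.5 in gl1T and 35.6 to 43.7 in Col-0. The same was so for 36.5% of tested probe sets.

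**Figure D4:**
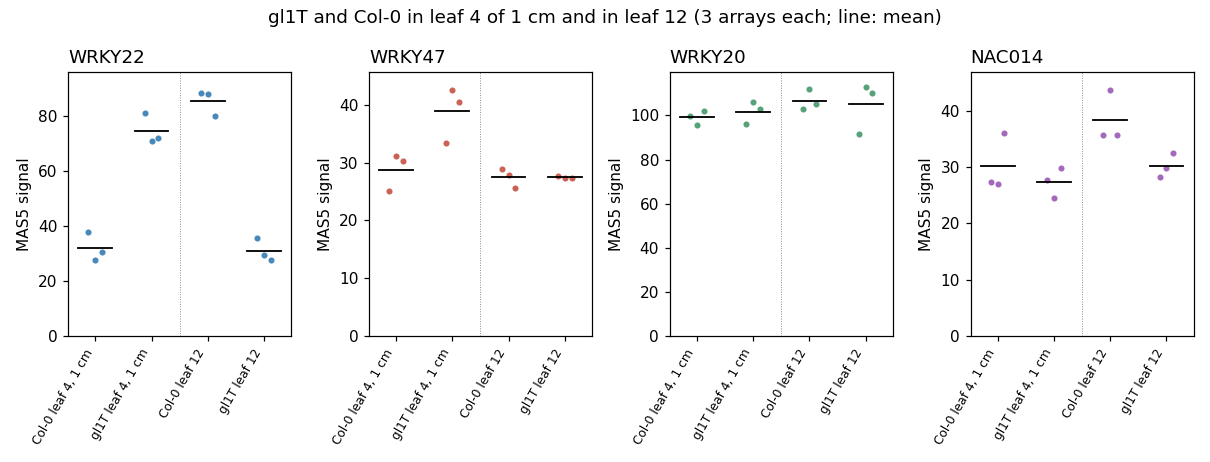
MAS5 signal (linear, from 0) of the 4 tested factors in leaf 4 at 1 cm and leaf 12 of Col-0 and gl1T, with 1 point per array and a line at the mean of 3. WRKY22 means are 32.1 in Col-0 and 74.8 in gl1T in leaf 4, and 85.7 in Col-0 and 30.9 in gl1T in leaf 12, while WRKY47, WRKY20 and NAC014 show no called difference.

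Some other measures moved with the same sets and some did not. The mesophyll markers LHCB4.1 and RCA were called in none of the gl1T tests, with medians of 0.12 in leaf 4 and 0.18 in leaf 12. Of 14 listed glucosinolate genes 2 were measured. BCAT4 was called in the test of the difference alone, at 1.22 ± 0.13, and UGT74B1 in none. Of the 4 measured anthocyanin and flavonol genes, 3 fell in gl1T leaf 4 (median -1.09) and 2 rose in gl1T leaf 12 (median 1), and all 4 were called higher in the test of the difference (median 2.04, beside 0.098 over all tested probe sets). Of the 2 measured senescence genes SAG101 rose in gl1T leaf 4 by 1.14 ± 0.159 (means of 41.9 in gl1T and 15.9 in Col-0), differed by -0.09 ± 0.159 in leaf 12 and was called at -1.23 ± 0.225 in the test of the difference, while SAG29 was called in none of these. The summed guard cell lineage markers, 2 of 4 with a probe set (FMA and SPCH), read 139 to 147 in Col-0 leaf 4 and 79.0 to 91.2 in gl1T leaf 4, and 93.2 to 107 in Col-0 leaf 12 and 126 to 136 in gl1T leaf 12. TRY, a trichome patterning gene and the 1 of 4 trichome markers with a probe set, read 36.5 to 56.3 and 29.7 to 40 in leaf 4, and 19.5 to 30.1 and 67.2 to 84.6 in leaf 12, Col-0 first. PYK10 read 49.9 to 53.8 in Col-0 leaf 4 and 10.1 to 12.6 in gl1T leaf 4. The GAPDH 3'-to-5' signal ratio, a sign of RNA quality, was 1.08 to 1.41 and 1.24 to 1.36 in leaf 4 and 1.31 to 1.53 and 1.34 to 3.23 in leaf 12, in the same order. The part of these in the WRKY22 values was not tested, and GL1 itself is not analysed here.

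Among the short-day rosettes, 0 of 4 factors were called in either step between sets, beside 3.25% of tested probe sets from set 87 to 89 and 0.43% from set 89 to 90. WRKY22 read 25.9, 29.0 and 26 in set 87, 40.7, 33.5 and 44.6 in set 89 and 29.5, 34.9 and 29.1 in set 90. Set 89 lay above set 87 without overlap, by 0.46 ± 0.109 (adjusted p = 0.000538), and set 90 minus set 89 was -0.29 ± 0.109 (adjusted p = 0.0687). Arrays of sets 87 and 89 did not overlap for WRKY22 and NAC014, nor for 52% of all tested probe sets. NAC014 also differed between sets 87 and 89, by 0.44 ± 0.14 (adjusted p = 0.00873), where the median over all tested probe sets was 0.111, and by -0.01 ± 0.14 (adjusted p = 0.987) from set 89 to 90. WRKY47 differed by 0.09 ± 0.124 (adjusted p = 0.593) and -0.19 ± 0.124 (adjusted p = 0.357) in these steps, and WRKY20 by 0.01 ± 0.098 (adjusted p = 0.941) and 0.10 ± 0.098 (adjusted p = 0.582).

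Against the mean of the rosette leaves, which differ from them in day length, temperature and tissue, the short-day rosettes gave 0 calls of 4, beside 16.8% of tested probe sets. WRKY22 had a mean of 32.6 against 66.8, all 9 short-day arrays lay below all 18 rosette arrays, and the difference was -0.91 ± 0.0543 (adjusted p = 9.68e-22). It was the 1 factor of 4 without overlap, beside 14.1% of tested probe sets. WRKY47, at 26.4 against 57.9, differed by -0.89 ± 0.0618 (adjusted p = 5.81e-19) and overlapped with leaf 12. With a pseudocount of 1 both were called, at -1.017 for WRKY22 and -1.002 for WRKY47. The WRKY47 difference was -1.63 and called against leaf 2 alone, and -0.06 (adjusted p = 0.65) against leaf 12 alone. The WRKY22 difference was -0.62 against leaf 2 alone and -1.26, and called, against leaf 12 alone. NAC014, at 54.5 against 40.2, differed by 0.40 ± 0.0698 (adjusted p = 9.17e-07). Its direction turned against leaf 2 alone, at -0.09 (adjusted p = 0.496), and was 0.43 against leaf 12 alone. WRKY20 differed by -0.14 ± 0.049 (adjusted p = 0.0076). PYK10 read 831 to 2118 on the short-day arrays, 804 to 854 on the sucrose-medium arrays and 4.9 to 146 on the rosette arrays. SPCH rose by 2.79 ± 0.122 and SAG101 fell by 1.67 ± 0.0795, both without overlap. FMA, TRY, SAG29 and the mesophyll markers were not called. The part of these genes in the differences of the factors was not tested.

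Across the 20 set means, the named genes with profiles most like WRKY47 were AT1G23140 (r = 0.966), AT2G38790 (r = 0.961) and GRXC1 (r = 0.959), among 8619 named and tested probe sets. For WRKY22 they were AT1G76600 (r = 0.871), AT5G46710 (r = 0.867) and AT4G29780 (r = 0.833), for NAC014 AGL30 (r = 0.928), AT5G19350 (r = 0.881) and AT3G08020 (r = 0.88), and for WRKY20 AT5G55650 (r = 0.751). The measure was chosen after the data were seen, the 20 means share their arrays, and the values describe likeness of profile only. Between the tested factors, r was -0.053 for WRKY22 and WRKY47, 0.399 for NAC014 and WRKY47, -0.4 for NAC014 and WRKY22, and 0.467 for WRKY20 and WRKY22.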

How the data were processed

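The authors deposited 1 intensity per probe set and array, MAS5 signal on a linear scale, made with MAS5 per the submitters' processing notes, whose version is not given in the sources used here. Groups came from the labels, which give no batch or scan date. In set 14 (rosette leaf 6) the first array's tissue field reads leaf 4. It stayed in its set, where its r was 0.984 or more, against at most 0.982 with leaf 4 arrays.

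In the supplied array annotation 13513 probe sets have 1 gene and 503 have several, and all 5 members matched RefSeq by gene ID. The members and gene lists were chosen with earlier results of these data known. Without the 64 controls, signals were transformed to log2(value + 6.139), the added constant being the median of the arrays' 20th percentiles, so fold changes of dim genes are understated. Tested were 15808 probe sets, those beyond their array's 40th percentile throughout at least 1 group, 4 of the 5 members among them. One limma 3.58.1 model in R 4.3.3 held all 20 groups (empirical Bayes with an intensity trend, 40 residual degrees of freedom, no block), with Benjamini-Hochberg adjustment over all tested probe sets. The limma steps were tried on simulated arrays with known changes between gl1T and Col-0 leaf 4. That trial did not cover the position trend, the test of the difference, the F test or the filter. The position trend is a linear contrast of rosette leaves 2 to 12 on leaf number.

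By rule, genes named per comparison were called members whose arrays did not overlap, at most 5 per direction, with the members of widest and narrowest range and list members. As there are only 5 members, values are given for all of them, and list members were picked after their values were seen. As alternatives, the pseudocount was set to 1 or made 4 times larger, the filter was dropped or raised to the 60th percentile, arrays were quantile-normalized or weighted, the replicate letter was a block, the fit held compared groups alone, the partner group was changed, the set 14 array was moved, and single arrays were left out. Figures were drawn with matplotlib 3.10.9.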

Additional observations from a re-analysis of the deposited data

Results flagged for a closer look

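WRKY22 had gl1T minus Col-0 differences of opposite sign in the 2 leaves compared, and the test of that difference gave -2.404 on the log2 scale (SE 0.154, limma adjusted p = 2.41e-19), with all 3 gl1T arrays above all 3 Col-0 arrays in leaf 4 and all 3 below them in leaf 12. The labels give no length for gl1T leaf 12, so its match in size to Col-0 leaf 12 is not known. Sets of 3 arrays are too small for a search for single outlying arrays.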

How the results depend on the processing

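Leaving out any 1 array changed no count of members called in the 13 comparisons or in the test over all sets, and no call of a single factor. Of 551 same-letter pairs of arrays, 546 had deviations correlated at 0.1 or less. In all, 25 of 60 arrays were closest to their own letter. These values show little pairing by replicate letter but cannot exclude a weak pairing. A replicate block gave the same counts, from 0 to 3 members called. Quantile normalization, array weights, other filters, only the compared groups and the moved array gave the same counts too. With a pseudocount of 1, the count of members called went from 0 to 1 for petiole against blade (WRKY47 at -1.002), from 0 to 2 for short-day rosettes against rosette leaves and from 2 to 3 for senescing leaves (NAC014 at 1.02). With a pseudocount 4 times larger, which shrinks differences of dim probe sets, it went from 2 to 1 for rosette leaf 2 against leaves 1 and 2 (WRKY22 at -0.91), and from 1 to 0 for gl1T in leaf 4 (WRKY22 at 0.81, limma adjusted p = 2.3e-12) and in leaf 12 (WRKY22 at -0.99, limma adjusted p = 2.3e-15). Against leaf 2 alone it went from 2 to 1 for senescing leaves and from 0 to 1 for short-day rosettes (WRKY47 at -1.63). Against leaf 12 alone it went from 0 to 1 for cauline leaves (WRKY47 at 1.36) and from 0 to 1 for short-day rosettes (WRKY22 at -1.26). No called difference of a factor changed sign. The NAC014 difference of short-day rosettes, which was not called, went from 0.40 to -0.09 against leaf 2 alone. The WRKY47 difference of cauline leaves, also not called, went from 0.53 to -0.21 against leaf 2 alone. Some smaller uncalled differences changed sign too. WRKY42, too dim to be tested, had no call without the filter, where its lowest adjusted p was 0.05 at a difference of 0.33 for short-day rosettes.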
